A study of Mus musculus with 3 samples.

Results

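The heat shock proteins and the DNAJ co-chaperones were taken here as every protein-coding gene of GENCODE M21 whose symbol begins with Hspa, Hspb, Hspd, Hspe, Hsph or Hsp90, or with Dnaja, Dnajb or Dnajc and a number. The rule found 72 genes, 29 of them Hsp genes and 43 of them Dnaj genes, among 22028 protein-coding genes and 55536 annotated genes. The libraries were 3 ribosome-depleted total RNA libraries made from the chromatin fraction of bone-marrow-derived macrophages of C57BL/6J mice. All 3 carry the same treatment: Lipid A, the membrane anchor of bacterial lipopolysaccharide that is sensed by TLR4, at 100 ng/ml for 12 h, then 12 h after washing it out, then Lipid A at 100 ng/ml again for 25 min. They are numbered as biological replicates 1, 2 and 3 under a single donor identifier, so whether they came from separate animals is not known, and the age and sex of the donor were not recorded. Library preparation started from 1 µg of RNA for replicate 1, from 250 ng for replicate 2 and from 500 ng for replicate 3. Macrophages without Lipid A or with a single dose were not analysed here, so the values below are levels and their spread in 1 condition, not responses to Lipid A.

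Heat shock proteins hold unfolded chains and let them fold. HSP70 proteins bind and release their clients in a cycle driven by ATP, DNAJ proteins bring clients to them and start ATP hydrolysis through their J domain, and the HSP110 proteins and other exchange factors reset the cycle. HSP90 takes over clients that are nearly folded, many of them kinases and receptors of signalling pathways. Some members are made in every cell and others are switched on by heat shock factor 1 (Hsf1), which binds runs of inverted repeats called heat shock elements. RNA from the chromatin fraction is rich in transcripts that are still attached to the template or not yet spliced, so levels in it are not levels of messenger RNA in the whole cell.

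Levels are given as TPM, an abundance scaled by transcript length and library size, so that genes can be set beside each other. Annotated genes held 13502401, 17848798 and 17824176 expected counts in replicates 1, 2 and 3. All 10 macrophage markers reached 1 TPM in every library, with a median of 96.6, 85.0 and 115 TPM, against 0 of 8 neutrophil, 0 of 5 B cell, 0 of 6 fibroblast, 0 of 6 muscle and 0 of 6 erythroid markers. Of 6 T cell markers 1 passed, Cd4, and Cd3e was at 0 counts. Replicate 1 stood apart from the others in some measures: genes outside the annotation took 1.75% of its counts, against 0.396% and 0.239%, and the 6 fibroblast markers summed to 0.01 TPM in it, against 1.5 and 1.32 TPM. Replicate 3 was not like the others in every measure either: Cd14, a macrophage marker that helps TLR4 sense lipopolysaccharide, stood at 57.5, 65.9 and 191 TPM.

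The sequences upstream of Hspa1a and Hspa1b are shown first, because by scaled counts no tested gene exceeded these 2 in the excess of replicate 1 over both other libraries. They encode the heat-inducible cytosolic HSP70, have a single exon each, and lie close together on the minus strand of chromosome 17 (mm10), Hspa1a at chr17:34969190-34972156 and Hspa1b at chr17:34956436-34959238. Their coding sequences matched at 1915 of 1923 aligned bases (99.6%), and the 250 bases before their RefSeq starts at 247 of 250 (98.8%). The lines below give those 250 bases from RefSeq on GRCm38.p6, 5′ to 3′ on the strand of the gene, from chr17:34972157-34972406 and chr17:34959239-34959488, with letters of a heat shock element in capitals.
Hspa1a: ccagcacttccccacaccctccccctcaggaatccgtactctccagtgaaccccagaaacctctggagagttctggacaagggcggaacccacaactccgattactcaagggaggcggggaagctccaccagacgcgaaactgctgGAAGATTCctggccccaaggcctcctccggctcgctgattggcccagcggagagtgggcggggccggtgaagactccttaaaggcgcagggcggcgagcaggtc
Hspa1b: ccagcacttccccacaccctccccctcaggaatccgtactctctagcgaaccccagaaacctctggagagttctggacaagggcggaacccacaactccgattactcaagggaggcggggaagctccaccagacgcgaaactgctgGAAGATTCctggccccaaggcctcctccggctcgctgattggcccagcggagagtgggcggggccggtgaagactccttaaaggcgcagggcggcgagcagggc
The capitals are GAAGATTC, 104 to 97 bases before the start in both genes. It is a match to GAANNTTC, a pair of adjoining units of the heat shock element that point in opposite directions.

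Hspa1a stood at 14.6 TPM in replicate 1, 0.71 in replicate 2 and 1.42 in replicate 3. Hspa1b stood at 11.2, 0.63 and 0.97 TPM. Since reads from the near-identical copies cannot be divided with certainty, the sum is the safer value: 25.8 TPM (925 counts) in replicate 1, 1.34 TPM (57 counts) in replicate 2 and 2.39 TPM (109 counts) in replicate 3. Replicate 1 was high for both genes, and the other 2 libraries were low. In bulk RNA, more cells that make a transcript and more of it per cell cannot be told apart. After scaling for depth by TMM (trimmed mean of M values), the sum was 18.5-fold higher in replicate 1 than in replicate 2 (95% counting interval 14.1 to 24.6) and 10.1-fold higher than in replicate 3 (8.29 to 12.5). These intervals cover counting error within single libraries only, since each replicate is 1 library and no test between replicates is possible.

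When 14193 tested genes were ordered by the smaller of their 2 ratios, replicate 1 over 2 and replicate 1 over 3, Hspa1b came first and Hspa1a second. The same order held with TPM and with DESeq2 size factors, and in the second quantification deposited for each library Hspa1a was at rank 2 and Hspa1b at rank 3. Gm20481, the annotated gene overlapping Hspa1a on the opposite strand, was at 0 TPM. The starting RNA, the counts outside the annotation and the fibroblast markers also differed between replicate 1 and the others, and their part in this difference was not tested.

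**Figure D1:**
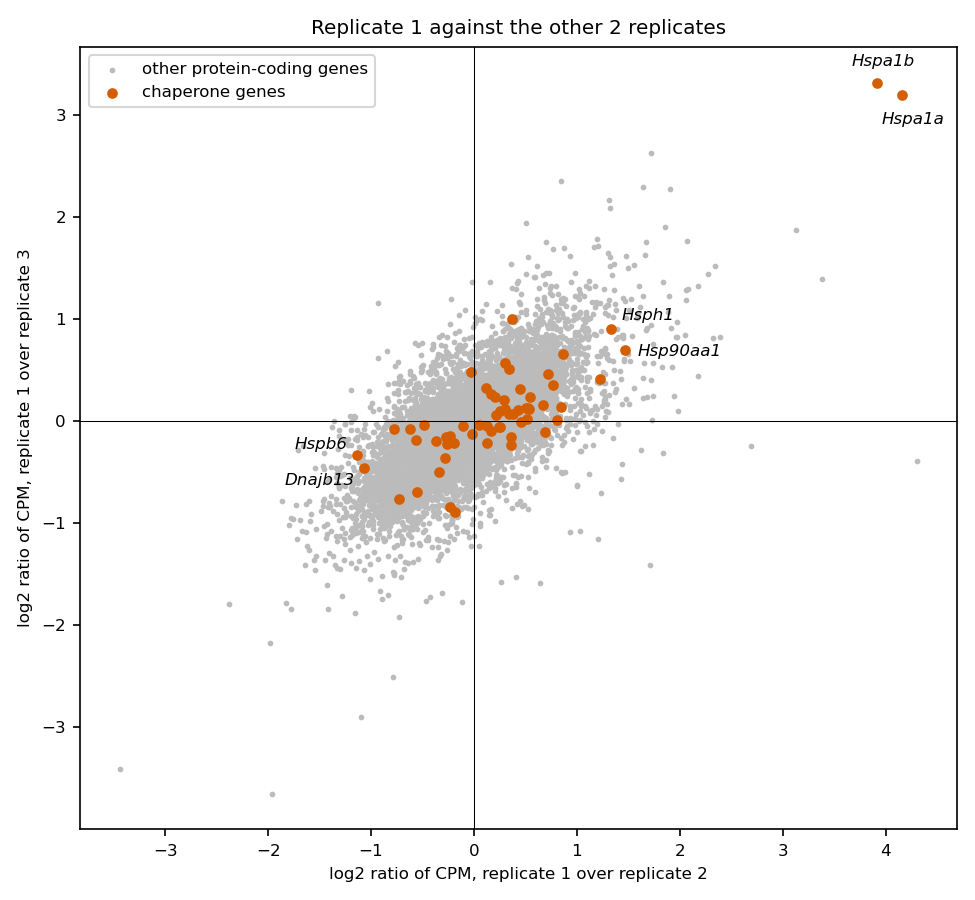
Log2 ratio of TMM-scaled CPM (counts scaled to library size) of replicate 1 over replicate 2 (horizontal) and over replicate 3 (vertical), with a pseudocount of 0.2. Each point is 1 tested protein-coding gene, chaperone genes in orange. Hspa1a and Hspa1b lie at the far upper right, Hsph1 and Hsp90aa1 at the edge of the main cloud.

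The other genes of a list made for heat-inducible genes did not all share this pattern. The list held 12 genes: Hspa1a, Hspa1b, Hspa8, Hsph1, Hspb1, Hspb8, Dnajb1, Dnaja1, Hsp90aa1, Hsp90ab1, Hspd1 and Hspe1. It thus takes in Hspa8 and Hsp90ab1, described below as the constitutive cytosolic forms. With Hspa1a and Hspa1b left out, its 8 other tested members had a median log2 ratio of 0.61 for replicate 1 over replicate 2 and 0.29 for replicate 1 over replicate 3 (0.70 and 0.49 with them), beside -0.05 and -0.06 over the tested protein-coding genes. The tested chaperone genes outside that list had medians of 0.19 and -0.02. Split by name instead, with listed genes kept in, the 21 tested Hsp genes had medians of 0.52 and 0.12. The 39 tested Dnaj genes had 0.21 and -0.04. The contrast between the list and the rest is thus also in part one between Hsp and Dnaj genes.

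Hsph1, the inducible HSP110 that recharges HSP70, stood at 18.3, 5.01 and 6.58 TPM in replicates 1, 2 and 3. Its counts were 2.55-fold higher in replicate 1 than in replicate 2 (95% counting interval 2.15 to 3.05) and 1.89-fold higher than in replicate 3 (1.61 to 2.21). Hsp90aa1, the inducible cytosolic HSP90, stood at 26.3, 12.7 and 13.7 TPM, 2.78-fold (2.42 to 3.20) and 1.62-fold (1.45 to 1.82) higher in replicate 1 by counts. Dnaja1, a cytosolic partner of HSP70, stood at 66.2, 35.2 and 45.5 TPM, with ratios of 1.65 (1.54 to 1.77) and 1.38 (1.29 to 1.47). For these 3 genes replicate 1 was the highest library and replicate 2 the lowest. Ordered as above by the smaller of the 2 ratios, they came at ranks 234, 490 and 1190 of the 14193 tested genes.

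Dnajb1, the classical inducible DNAJ of the cytosol, was low throughout and not highest in replicate 1, at 1.16, 1.68 and 1.26 TPM. Replicate 1 held 0.661 of its scaled level in replicate 2 (95% counting interval 0.443 to 0.975), and the interval against replicate 3, 0.573 to 1.31, spanned 1. In the second quantification Dnajb1 was nearly level, at 1.65, 1.69 and 1.63 TPM. Hspb1, a small heat shock protein that binds unfolding clients without ATP, had 12, 10 and 13 counts, and both of its ratios, 1.37 and 1.10, had intervals that spanned 1. Hspb8 had 0 counts in every library, which allows up to 3 counts, or 0.222, 0.168 and 0.168 CPM. Hspa8, Hsp90ab1, Hspd1 and Hspe1 are described with their classes below.

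Across the family, 2 of 60 tested members, Hspa1a and Hspa1b, were at least 2-fold higher in replicate 1 than in both other libraries, where 0.766% of 10969 tested protein-coding genes were. Since reads of these near-identical copies cannot be divided with certainty, the 2 calls are not separate and may be 1 signal. With TPM 3 members passed, Hsph1 being the third, where 1.25% of those genes did, and with the second quantification 3 passed, where 1.57% did. None of the 60 was at least 2-fold higher in replicate 2 than in both others (0.41% of protein-coding genes) or in replicate 3 (0.319%). Of the 53 detected members 27 were highest in replicate 1, 11 in replicate 2 and 15 in replicate 3 by scaled counts. Over the detected protein-coding genes those shares were 34%, 35.5% and 30.5%. By TPM 32 members were highest in replicate 1, where 41.6% of those genes were. Hspa1a and Hspa1b do not count among the 53, because both fell below 1 TPM in at least 1 library.

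Hsf1 itself stood at 16.3, 26.1 and 20.7 TPM and was lowest in replicate 1. Of 5 heat shock factor genes 3 reached 1 TPM in every library, Hsf1, Hsf2 (10.8, 8.28 and 8.70 TPM) and Hsf4 (1.95, 2.36 and 1.71 TPM). Of 33 listed co-chaperones of HSP70 and HSP90, Hspbp1 of the family itself among them, 31 were detected, where 44% of protein-coding genes were. Of the 32 tested ones 0 were at least 2-fold higher in replicate 1, where 0.766% of tested protein-coding genes were. The highest co-chaperones were Bag6 (92.5, 107 and 93.8 TPM), Gak, which uncoats clathrin vesicles with HSP70 (75.6, 78.4 and 60.7 TPM), and the HSP90 partner Chordc1 (58.2, 38.9 and 44.4 TPM). Bag3, an exchange factor that is itself induced by heat, stood at 2.32, 1.99 and 2.05 TPM. Of the 13 listed genes for subunits of the cytosolic chaperonin TRiC and its helper prefoldin, 13 were detected (Cct6a is not annotated as protein-coding in M21 and was not on the list). They were led by Cct4 (23.6, 26.4 and 29.1 TPM), Cct8 (27.4, 25.4 and 26.1 TPM) and Cct2 (24.9, 22.4 and 26.6 TPM). Of these 13 genes 0 were at least 2-fold higher in replicate 1. Counts of 0 in both lists are close to the share of 0.766%.

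Of the 72 members, 53 reached 1 TPM in every library, where 44% of protein-coding genes did. Their median level was 10.5, 8.19 and 9.76 TPM in replicates 1, 2 and 3, beside 10.8, 11.1 and 10.6 TPM over all detected protein-coding genes. By mean level 3 members were at 100 TPM or more, 22 between 10 and 100 TPM, and 28 of the detected ones below 10 TPM. The members together held 0.476%, 0.405% and 0.470% of the protein-coding TPM, and the 10 highest of them held 65.2%, 64.3% and 66.2% of the members' total. Across the 53 detected genes log2 levels in pairs of libraries correlated with Pearson r of 0.965, 0.977 and 0.978, a description across genes of the same cells.

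**Figure D2:**
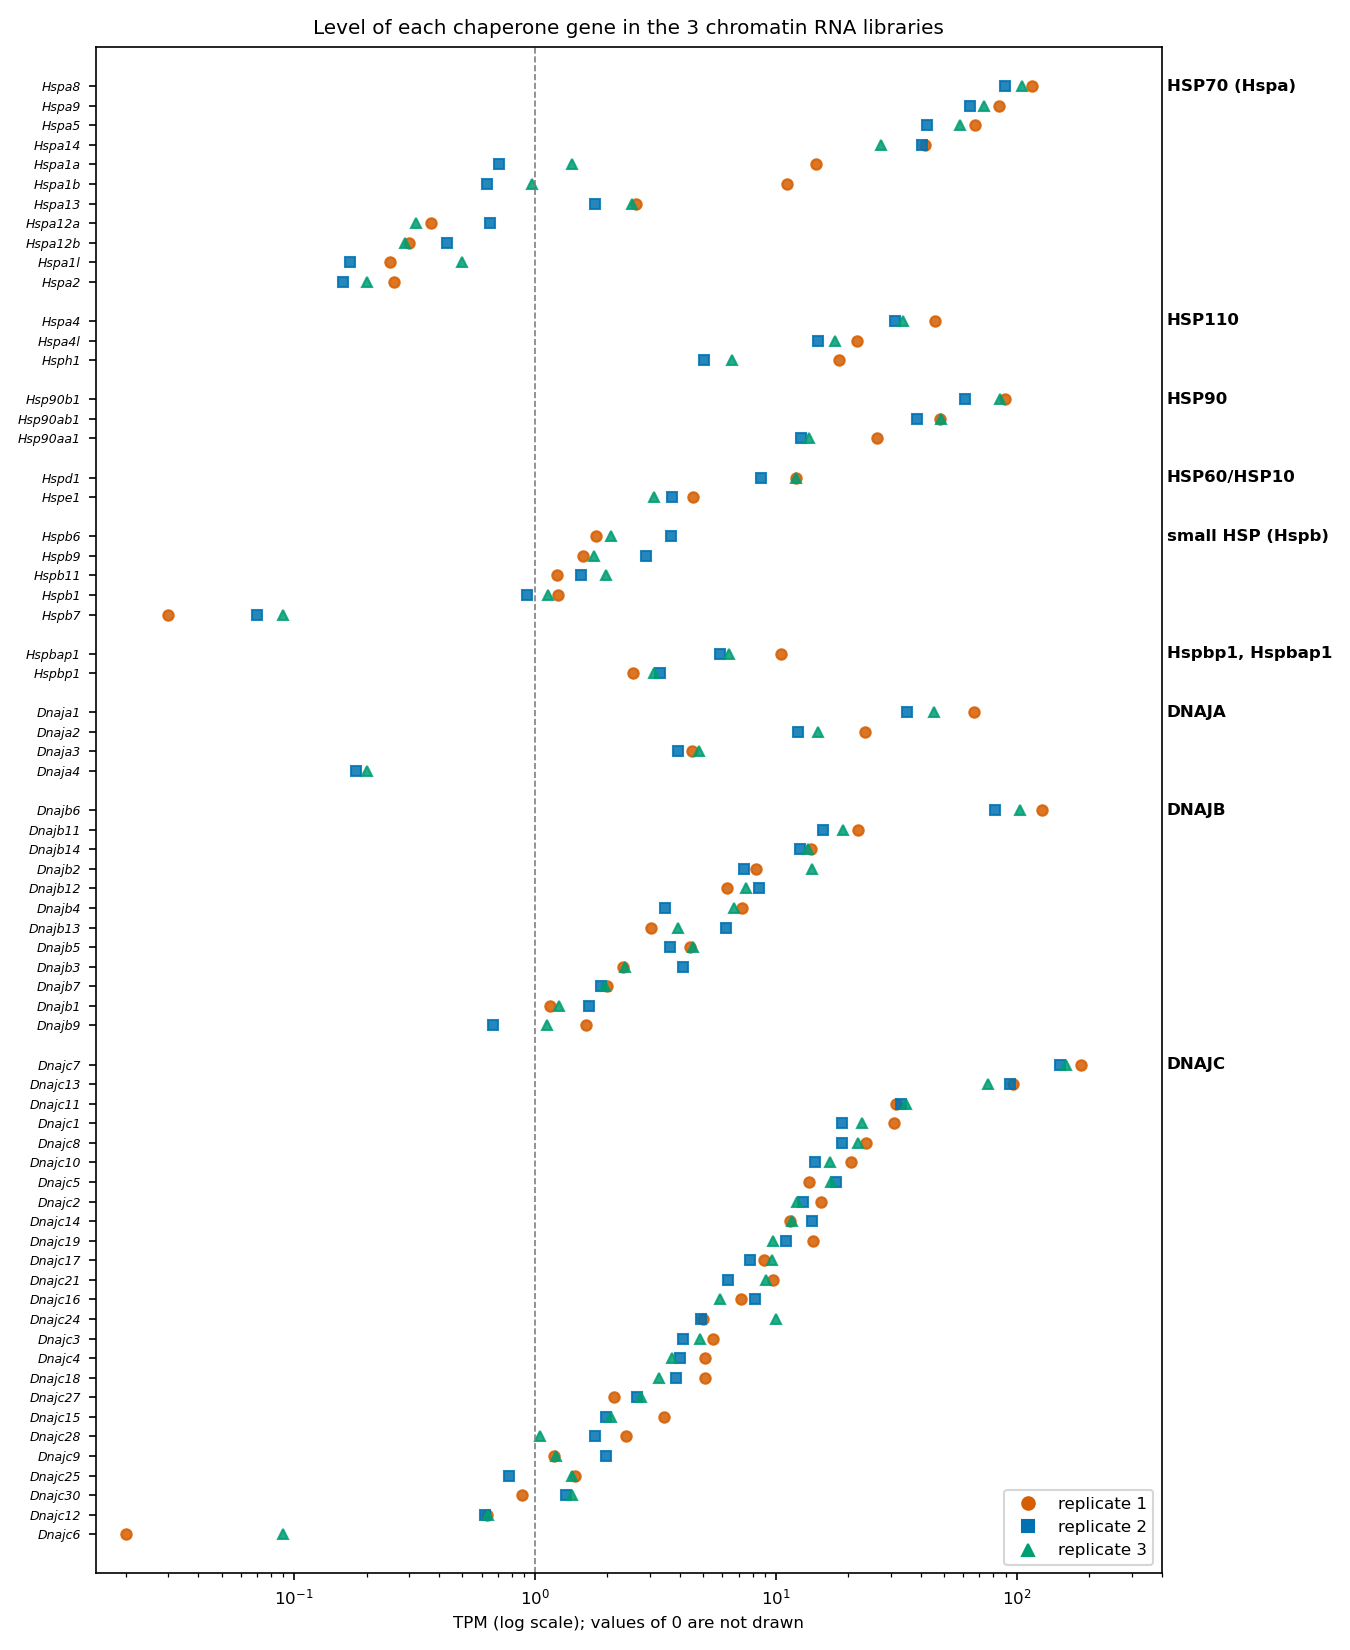
TPM of each chaperone gene on a log axis, 1 line per gene and 1 symbol per library, grouped by class and ordered by mean. The dashed line marks 1 TPM. Hspa1a and Hspa1b show the widest gap between the circle of replicate 1 and the other symbols.

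Among the HSP70 proteins 5 of 11 genes were detected. Hspa8, the constitutive cytosolic HSP70, stood at 115, 89.5 and 105 TPM (mean 103 ± 13.0 SD, n = 3). Hspa9, the HSP70 of the mitochondrial matrix, stood at 84.2, 63.9 and 73.2 TPM, and Hspa5 (BiP), that of the endoplasmic reticulum, at 67.1, 42.3 and 57.9 TPM. These 3 genes led the class, and each was highest in replicate 1 and lowest in replicate 2. Hspa14, which works at the ribosome, stood at 41.7, 40.5 and 27.4 TPM, and Hspa13 at 2.62, 1.78 and 2.52 TPM. Hspa14 overlaps Gm45902 on the same strand (10.9 TPM), so its reads may be shared. Besides the inducible pair, Hspa12a, Hspa12b, Hspa1l and Hspa2 fell short, with 0.16 to 0.65 TPM in single libraries.

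The 3 HSP110 genes, all nucleotide exchange factors of HSP70, were detected. Hspa4 stood at 45.7, 31.2 and 33.6 TPM and Hspa4l at 21.6, 15.0 and 17.6 TPM, both above Hsph1 in every library. The 3 HSP90 genes were detected as well. Hsp90b1 (GRP94), the HSP90 of the endoplasmic reticulum that folds Toll-like receptors and integrins, stood at 89.6, 60.9 and 85.3 TPM. Hsp90ab1, the constitutive cytosolic form, stood at 48.0, 38.7 and 48.4 TPM and was above Hsp90aa1 in 3 of 3 libraries.

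Hspd1 and Hspe1 encode the mitochondrial chaperonin HSP60 and its lid HSP10, which work as a complex, and the genes lie head to head on chromosome 1, overlapping by 112 bases. Hspd1 stood at 12.1, 8.70 and 12.1 TPM and Hspe1 at 4.51, 3.70 and 3.13 TPM, from 42, 37 and 34 counts for the latter. Hspd1 was above Hspe1 in 3 of 3 libraries here, but in 2 of 3 in the second quantification, which gave Hspd1 16.0, 7.47 and 12.2 TPM and Hspe1 15.8, 9.55 and 12.1 TPM.

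The small heat shock proteins were the class with the lowest levels: 3 of 8 were detected and 3 had 0 counts in every library (Hspb2, Hspb3 and Hspb8). Hspb6 stood at 1.79, 3.68 and 2.06 TPM, Hspb9 at 1.59, 2.90 and 1.76 TPM, and Hspb11, which is also a subunit of the intraflagellar transport machinery, at 1.24, 1.55 and 1.98 TPM. Hspb6 and Hspb9 were highest in replicate 2. Hspb1 missed the limit with 1.25, 0.93 and 1.13 TPM, and Hspb7 had 1, 3 and 4 counts. The rule also takes in Hspbp1, an exchange factor of HSP70 (2.56, 3.30 and 3.12 TPM), and Hspbap1 (10.5, 5.88 and 6.36 TPM), which are named after heat shock proteins and are not members of those families.

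Of the DNAJ genes 35 of 43 were detected: 3 of 4 in class A, 11 of 13 in class B and 21 of 26 in class C. Dnajc7, a co-chaperone that binds both HSP70 and HSP90, was the highest member in the gene tables, at 185, 151 and 159 TPM (mean 165 ± 17.6 SD, n = 3). Dnajb6, a suppressor of protein aggregation, stood at 128, 81.2 and 104 TPM, and Dnajc13, which acts with HSP70 on endosomes, at 96.9, 94.0 and 76.1 TPM. The levels of Dnajb6, Hspa8 and Dnajc13 overlapped between libraries, so their order is not resolved, whereas Dnajc7 was above each of them in every library. In the second quantification Dnajb6 (498, 264 and 364 TPM) was instead above Dnajc7 (242, 181 and 191 TPM) in every library.

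Dnajc11 of the mitochondrial membrane stood at 31.4, 33.0 and 34.7 TPM and Dnajc8, which is linked to splicing, at 23.6, 18.9 and 22.0 TPM. Dnaja2, a class A partner of cytosolic HSP70, stood at 23.5, 12.3 and 15.0 TPM. Another 3 of the 10 highest DNAJ genes serve the endoplasmic reticulum: Dnajc1 (30.9, 18.9 and 22.7 TPM), Dnajb11 (22.0, 15.7 and 19.1 TPM) and Dnajc10, a disulfide reductase (20.5, 14.6 and 16.8 TPM). All of these but Dnajc11 were highest in replicate 1 and lowest in replicate 2. The members that fell short were Dnaja4, Dnajb8, Dnajb9, Dnajc6, Dnajc12, Dnajc22, Dnajc25 and Dnajc30, with Dnajb8 and Dnajc22 at 0 counts in every library.

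The other detected DNAJ genes lay lower, between a mean of 1.37 TPM (Dnajb1) and 16.1 TPM (Dnajc5). Not all followed the order of the libraries seen above. Dnajb2 (8.24, 7.40 and 14.1 TPM) and Dnajc24, which serves the making of the modified residue diphthamide (4.98, 4.87 and 10.1 TPM), were highest in replicate 3. Dnajb12 of the endoplasmic reticulum (6.29, 8.51 and 7.50 TPM) and Dnajb13 (3.02, 6.21 and 3.92 TPM), a gene known from sperm flagella that overlaps Ucp2 on the opposite strand (37.5 TPM), were highest in replicate 2. In the second quantification Dnajb2 was again highest in replicate 3, at 10.4, 7.12 and 16.4 TPM. Dnajc24 was instead highest in replicate 1 there, at 15.3, 10.3 and 15.0 TPM. So were Dnajb12 (9.21, 8.43 and 8.95 TPM) and Dnajb13 (9.42, 8.59 and 6.91 TPM). Dnajc19 and Dnajc15, partners of HSP70 in import into mitochondria, stood at 14.2, 11.0 and 9.76 TPM and at 3.42, 1.97 and 2.06 TPM.

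By compartment, 11 of 13 members of the endoplasmic reticulum and 7 of 8 mitochondrial members were detected, where 44% of protein-coding genes were. Their median levels were 7.14, 8.51 and 7.50 TPM in the reticulum and 8.29, 6.32 and 7.28 TPM in mitochondria. Summed, they held 274, 193 and 242 TPM in the reticulum and 155, 128 and 141 TPM in mitochondria. By these sums replicate 2 was the lowest library in both, although the median of the reticulum was highest there. Of these members 0 of 13 and 0 of 8 were at least 2-fold higher in replicate 1 than in both other libraries. Over tested protein-coding genes that share was 0.766%, so both counts are close to it. Dnajb9 (ERdj4), an inducible gene of the unfolded protein response, stood at 1.63, 0.67 and 1.12 TPM.

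The genes of 4 pairs were set side by side within each library as differences of log2(TPM + 1). Hspa8 exceeded Hspa1b by 3.26, 5.79 and 5.75 (mean 4.93 ± 1.45 SD), the smallest gap being in replicate 1. Against Hspa1a and Hspa1b summed, an alternative chosen after seeing the data, the differences were 2.12, 5.27 and 4.96 (mean 4.12 ± 1.74 SD). Hsp90ab1 exceeded Hsp90aa1 by 0.84, 1.54 and 1.75 (mean 1.38 ± 0.48 SD), again least in replicate 1. Dnaja1 exceeded Dnajb1 by 4.96, 3.75 and 4.36 (mean 4.36 ± 0.60 SD), and Hspd1 exceeded Hspe1 by 1.25, 1.05 and 1.66 (mean 1.32 ± 0.32 SD). Each difference was positive in 3 of 3 libraries, and an exact two-sided sign-flip test gave p = 0.25 for each of the 4 pairs (Benjamini-Hochberg adjusted 0.25), the smallest p that 3 libraries allow. None of the 4 therefore reaches significance in this design.

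The spread between replicates was also described by the biological coefficient of variation (BCV) of edgeR, the relative variation beyond counting noise. The median BCV was 0.201 over the 60 tested members, 0.203 over all tested genes and 0.197 over the tested protein-coding genes. Of the 60 members 30 lay above the overall median of all tested genes, where 43.1% of protein-coding genes did. This count was not stable: 15 of 67 members lay above the overall median with DESeq2 dispersions, where 34.7% of protein-coding genes did, and 15 of 67 with no filter on low counts, where 35% did. Hspa1a and Hspa1b had the highest values among the members, 0.720 and 0.715. Among detected members Hsp90aa1 (0.298), Hspb6 (0.296), Hsph1 (0.289), Dnajb3 (0.262) and Dnajc28 (0.259) were highest, and Hspa4 (0.165), Dnajb14 (0.165), Dnajc5 (0.168), Dnajc7 (0.170) and Dnajc11 (0.173) lowest. edgeR draws each estimate towards the trend over all genes, so the spread of the most variable genes is understated.

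Dnajb3 stood at 2.31, 4.13 and 2.37 TPM and Dnajc28 at 2.38, 1.77 and 1.05 TPM. Dnajb3 lies inside the Ugt1a cluster on the opposite strand, where Ugt1a7c reached 7.61 TPM, and Dnajc28 lies inside the antisense gene Gm15964 at 3.18 TPM. The steadier pair Dnajb14 and Dnajc5, the latter a cysteine string protein of secretory vesicles, stood at 13.9, 12.6 and 13.6 TPM and at 13.8, 17.7 and 16.9 TPM. In all, 24 of the 72 members overlap another gene with at least 1 TPM, 22 of them one on the opposite strand. The same share over all protein-coding genes was not counted, so these numbers are not read as particular to the members. The strand setting of the counting is not given, so reads of overlapping genes cannot be told apart. The largest overlap in level was that of Dnaja3 (4.50, 3.93 and 4.79 TPM) with Coro7 on the opposite strand at 224 TPM and Vasn on its own strand at 96.1 TPM.

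Chromatin RNA can hold unfinished transcripts, and the transcript tables assign part of each gene to forms that are not annotated as coding. Retained_intron transcripts keep an intron, processed_transcript forms lack an open reading frame in the annotation, and nonsense_mediated_decay forms carry an early stop. For 45 detected members both coding and other transcripts are annotated. In 19 of the 45 most of the TPM lay in the other forms, where 50.4% of 8117 protein-coding genes showed this. The median share was 43.4% over the members and 50.2% over those genes, so the members were close to the background.

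Dnajc7 had 80.0%, 85.9% and 80.1% of its TPM in processed_transcript forms, so its place as the highest member in the gene tables rests on them. Its coding transcript Dnajc7-201, with 14 exons, held 19.7 TPM on average. Dnaja1 likewise had 81.5%, 78.7% and 78.7% in processed_transcript forms. Retained_intron forms led in Hspa14 (85.6%, 81.7% and 80.7%), Dnajc11 (82.3%, 84.6% and 80.5%) and Hspa9 (64.6%, 73.6% and 64.2%), and in Hspa8 they held 56.6%, 50.1% and 47.0%. Hspbap1 had 69.5%, 55.4% and 61.6% in nonsense_mediated_decay forms.

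Hsph1 had 75.4%, 69.5% and 59.7% outside coding forms. Coding and other forms were both highest in replicate 1: the coding transcript Hsph1-211 held 2.28, 1.00 and 1.52 TPM, and the retained_intron transcript Hsph1-210 held 5.40, 1.31 and 1.78 TPM. The other members with most TPM outside coding forms were Dnajb5 (74.7% on average), Hspa4 (72.9%), Dnajc8 (67.8%), Dnajc2 (64.8%), Dnajc10 (64.0%), Dnajc17 (60.4%), Dnajb14 (60.0%), Hspe1 (57.8%), Hsp90ab1 (57.7%), Hspa4l (54.1%) and Dnajc21 (53.2%). Dnajc2, which works at the ribosome, stood at 15.4, 13.0 and 12.2 TPM, Dnajb5 at 4.39, 3.64 and 4.51 TPM, Dnajc17 at 8.94, 7.82 and 9.61 TPM and Dnajc21 at 9.76, 6.30 and 9.08 TPM. Short transcripts weigh more in TPM than in counts. By counts 14 of the 45 members had most of their signal outside coding forms, where 30.3% of the 8117 genes did. Of the genes named here, 7 fell below 50% by counts: Dnajc21 (48.2%), Dnajc17 (36.6%), Dnajb14 (36.5%), Hsp90ab1 (23.6%), Hspa9 (22.8%), Dnajc10 (20.7%) and Hspa4l (11.9%), while Hspb11 and Hspb6 came above it. In the second quantification 28 of the 45 had most of their TPM outside coding forms, where 62.6% of those genes did. Hspe1 (19.7%), Hsp90ab1 (48.7%) and Hspa4l (49.9%) fell below 50% there. Another 12 came above it: Dnaja2, Dnaja3, Dnajc9, Dnajc13, Dnajc14, Dnajc15, Dnajc24, Hsp90aa1, Hspa5, Hspa13, Hspb6 and Hspb11. Hspa1a and Hspa1b have only coding transcripts of 1 exon, so no share can be given for them.

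**Figure D3:**
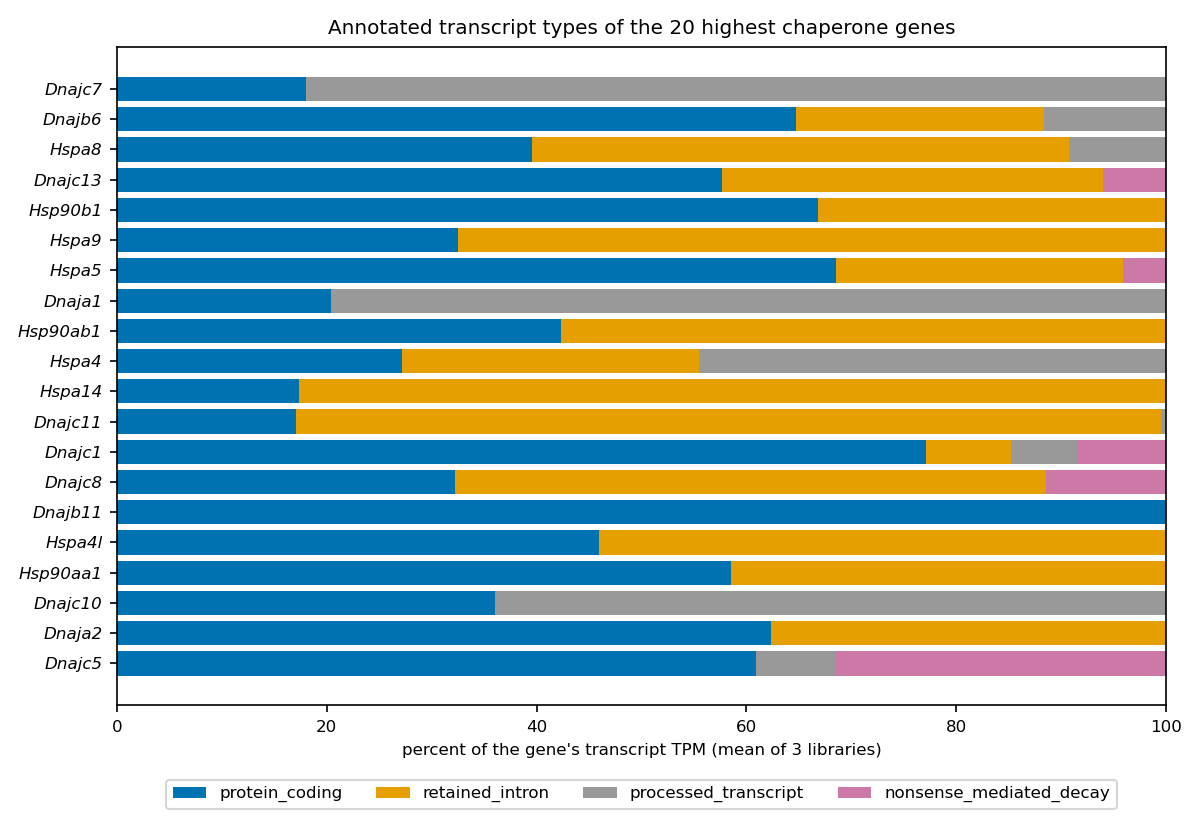
Share of each gene's transcript TPM (percent, mean of 3 libraries) by annotated transcript type for the 20 highest chaperone genes, ordered by level. Dnajc7 and Dnaja1 are mostly grey (processed_transcript), Hspa14 and Dnajc11 mostly orange (retained_intron), and Dnajb11 has coding forms only.

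The second deposited quantification gave higher levels for most members, with a median ratio to the first of 1.37 over the detected members and 1.33 over the detected protein-coding genes. Dnajb6 rose in it from a mean of 104 to 376 TPM. Its transcripts Dnajb6-211 and Dnajb6-204, both at 0 TPM in the first quantification, held 113 and 94.1 TPM in the second. Among the members above 0 TPM in the first quantification, 2 differed over 4-fold, neither of them detected by the limit above. Hspa12b went from 0.30, 0.43 and 0.29 TPM to 16.1, 13.8 and 12.6 TPM, of which the 4-exon transcript Hspa12b-202 held 13.6 TPM on average. Dnajc12 went from 0.63, 0.62 and 0.64 TPM to 5.03, 3.70 and 4.92 TPM. Another 3 members, Dnajb8, Hspb3 and Dnajc22, went from 0 to a mean of at most 0.110 TPM. The inducible pair kept its pattern there, with a summed 21.7, 0.940 and 1.80 TPM.

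**Figure D4:**
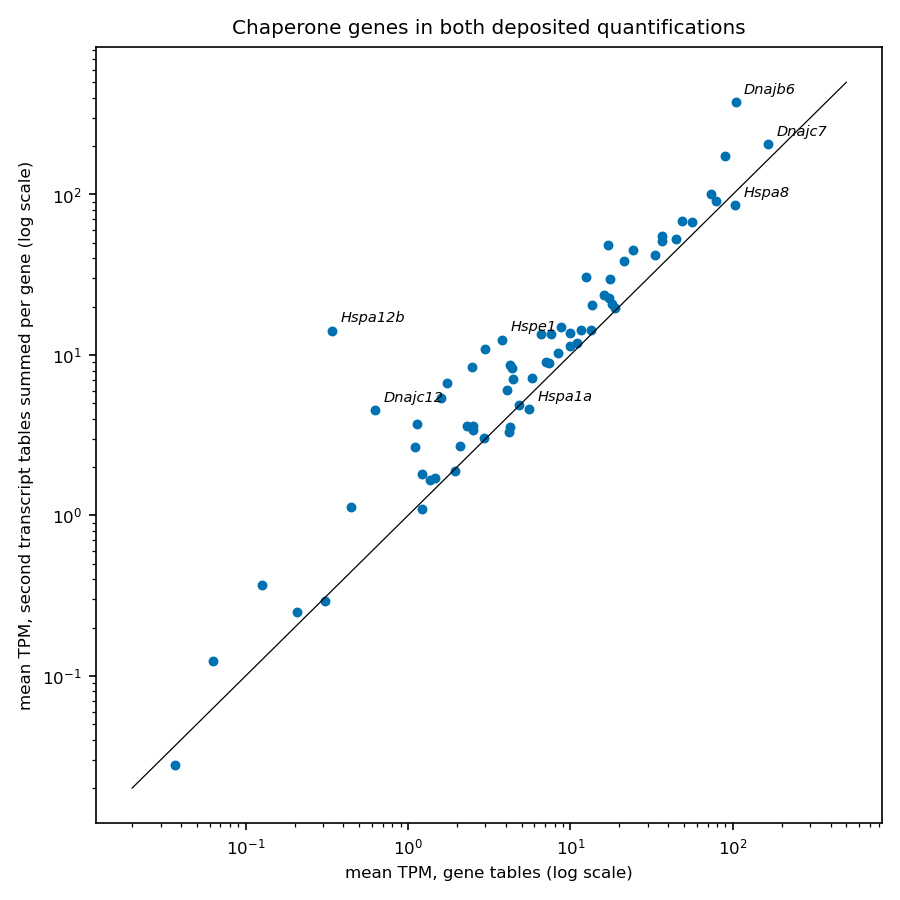
Mean TPM of each chaperone gene (3 libraries) in the gene tables (horizontal, log scale) and in the second transcript tables summed per gene (vertical, log scale), with the line of equal values. Hspa12b, Dnajc12 and Dnajb6 lie well above the line, while Hspa1a and Hspa8 lie slightly below it.

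The upstream sequences were searched for the letters of the heat shock element. RefSeq promoters were matched by symbol for 59 of the 72 members, and those of Hspa8, Hspa9, Hspa13, Hsp90aa1, Hsp90ab1, Hspb2, Dnajc2, Dnajc5, Dnajc11, Dnajc12, Dnajc18, Dnajc22 and Dnajc30 were not. The motifs were GAANNTTC and TTCNNGAA, each of which reads the same on both strands, and they overlap each other where 3 or more units alternate. At least 1 of them lay within the 250 bases upstream of any start of 14 of the 59 members, where 14.5% of 27025 genes with a RefSeq promoter had one. GAANNTTC lay upstream of 11 members (7.73% of all genes) and TTCNNGAA upstream of 6 (8.11% of all genes). A run of 3 or more alternating units was found for 3 members, Hspd1, Hspe1 and Dnajb6, where 0.514% of all genes had one.

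The runs of 3 or more units, and the matches of 2 units upstream of Hsph1 and Dnaja1, are given as capitals. They read 5′ to 3′ on the strand of the gene. The match of the inducible pair also had 2 units. Hspd1 and Hspe1 share 1 run of 4 units, read from opposite strands at chr1:55088059-55088076. It lies upstream of 1 of the 2 RefSeq starts of Hspd1, within the annotated span of that gene. The run of Dnajb6 is at chr5:29735852-29735864.
Hspd1: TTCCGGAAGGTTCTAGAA
Hspe1: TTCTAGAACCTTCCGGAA
Dnajb6: GAATCTTCCGGAA
Hsph1: TTCTCGAA
Dnaja1: GAAAATTC
The match upstream of Hsph1 is at chr5:149636362-149636369. That of Dnaja1, seen from 1 of its 3 RefSeq starts, is at chr4:40722344-40722351. Only exact units that adjoin were counted, so runs with a gap or a mismatch are not in these numbers. Hspd1, Hspe1 and Dnajb6 had log2 ratios of 0.69, 0.34 and 0.53 for replicate 1 over replicate 2 and of -0.11, 0.51 and 0.13 for replicate 1 over replicate 3. Those of Hspa1a and Hspa1b were 4.16 and 3.91 over replicate 2, and 3.19 and 3.32 over replicate 3. In the other members with 2 units, the smaller log2 ratio was 0.91 (Hsph1), 0.46 (Dnaja1), 0.11 (Hspb1), 0.10 (Dnajc10) and 0.01 (Dnajb4). It was -0.36 (Dnajc27), -1.14 (Hspb6) and -1.95 (Dnaja4, from 0, 7 and 10 counts), and Hspb3 had 0 counts in every library. Hspb1 had 2 separate matches, at 117 to 110 and 97 to 90 bases before its start. Dnajb1 and Hspa5 had none in these windows. A match of letters is a description of the window and not a binding site.

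**Figure D5:**
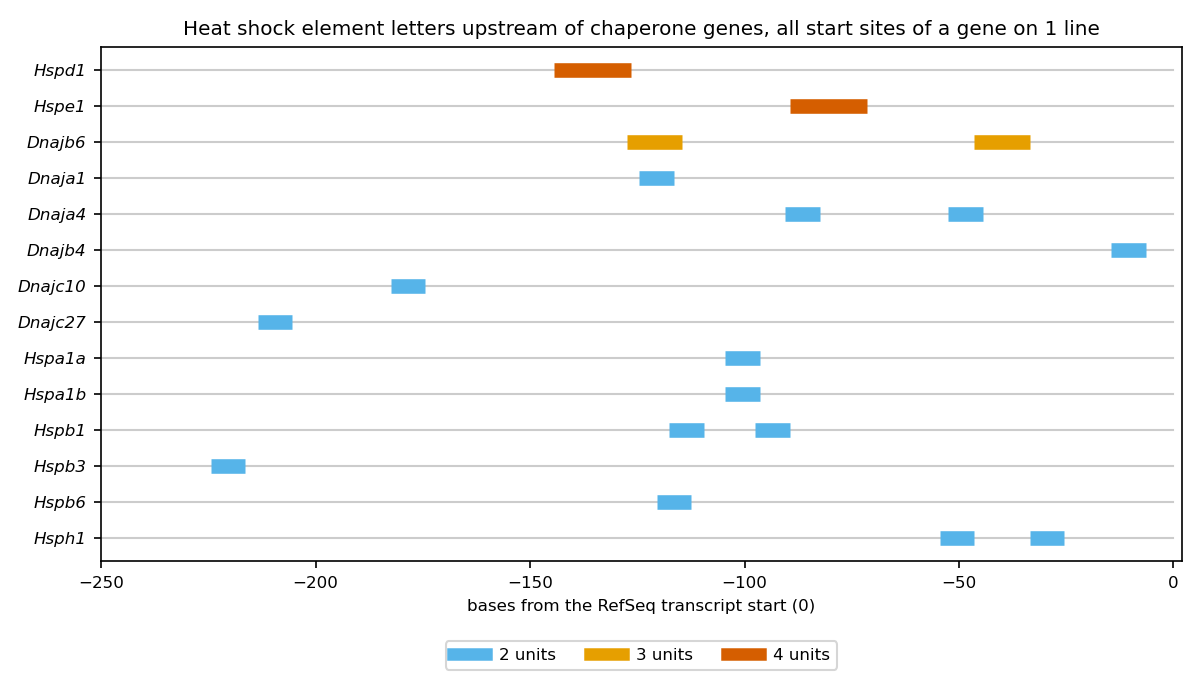
Position of each match relative to the RefSeq start (0) in the 250 upstream bases, for the 14 members with a match. Colour gives the number of alternating units, and matches seen from several starts of a gene are drawn on 1 line, as for Dnajb6 and Hsph1. Hspd1 and Hspe1 carry the 4-unit run, and Hspa1a and Hspa1b a match of 2 units at the same distance.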

How the data were processed

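RNA was measured in 3 chromatin-fraction libraries of 1 group. The authors' gene tables and first transcript tables hold expected counts, TPM and posterior mean TPM with the bounds of its interval, with RSEM's column names per the file headers. The deposited second transcript tables hold estimated counts and TPM, with kallisto's column names per the file headers. The deposited notes give mm10 and GENCODE M21. No aligner, version or strandedness is given in the sources used here. Counts and TPM cover annotated transcripts, so unspliced RNA outside them is not in these levels.

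Annotated genes only were used (55536 of 81881 table entries), leaving out 1.75%, 0.396% and 0.239% of counts. A gene counted as detected from 1 TPM upward in all 3 libraries. Expected counts were rounded, passed through filterByExpr and scaled by TMM in edgeR 4.0.16 (R 4.3.3), which also gave the BCV. The ratios used a pseudocount of 0.2 CPM, differences of log2(TPM + 1) a pseudocount of 1. Counting intervals of ratios are exact (Clopper-Pearson, 95%) and, like the limit of 3 counts for a 0, cover counting error only. The procedure was tested on simulated data. Alternatives used DESeq2 1.42.0, other limits, the second quantification and each pair of libraries. Upstream sequences are from RefSeq, GRCm38.p6.

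The members, gene lists and tests were chosen with earlier results of these data known. Values in every library are given for detected Hsp genes, the 10 highest DNAJ genes, heat-inducible genes, the 5 highest and 5 lowest BCV, members over 4-fold apart between quantifications and those mostly in non-coding forms. The following were chosen after values were seen: the ratios of replicate 1, the overlaps and the motif search. The replicates are separate libraries whose origin in separate cultures or animals is not stated, so the spread may be technical.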

Additional observations from a re-analysis of the deposited data

How the results depend on the processing

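No paired analysis was possible because all 3 libraries belong to 1 group. Detection of members moved between 44 and 61 of 72 over limits of 0.5 and 2 TPM, 10 counts, the second quantification, posterior means and pairs of libraries, with 53 as reported. The share over protein-coding genes is given only for the reported limit (44%), so the other counts have no background beside them. The number of members above the overall median BCV went from 30 of 60 (43.1% of protein-coding genes) to 15 of 67 with DESeq2 dispersions (34.7%) and 15 of 67 with no filter on low counts (35%); the cause was not tested. It ranged from 24 to 31 when 1 library was left out, again with no share over protein-coding genes beside it. The difference between Hspd1 and Hspe1 changed sign to -0.10 in the second quantification (exact sign-flip p = 1.0), and the cause was not tested. The differences of the other 3 pairs kept their sign under every alternative run, with Hsp90ab1 over Hsp90aa1 between 0.92 and 1.65. Members with most TPM outside coding forms numbered 28 in the second quantification (62.6% of protein-coding genes with both kinds) and 14 by counts (30.3%), beside 19 (50.4%) as reported, the count-based share being an alternative chosen after seeing the data. The count at least 2-fold higher in replicate 1 was 2 with DESeq2 size factors and 3 with TPM or the second quantification, also chosen after seeing the data. The levels of 43 named members were checked, and the second quantification moved 29 upward and 2 downward by more than 1 SD. Further members with levels given above, such as Dnajb9, Dnajc15 and Dnajc24, were not in this check. With 1 library a replicate, no difference between replicates can be tested, and genes near 1 TPM rest on few counts.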
